A study of Mus musculus with 12 samples.

Results

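The peaks that set ER-Hoxa9 Lys-GFP cells deprived of estradiol (E2) for 56 h apart from cells deprived for 72 h, both with E2 returned afterwards, were taken from the deposited ATAC-seq peak lists. A peak of 1 list without a single shared base in the other was called 56 h-only or 72 h-only, and the rest were shared. Of 8989 peaks in the 56 h list, 877 were 56 h-only, and of 9581 in the 72 h list, 1464 were 72 h-only. The lists together covered 10450 regions, so 8.39% of these were called in the 56 h list only and 14.0% in the 72 h list only, and the 6 lists of the series covered 16028.

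The series held 12 libraries in 6 groups of 2, from cells of a C57BL/6 background grown in RPMI with serum and stem cell factor-conditioned medium. All cells carried Hoxa9 fused to the estrogen receptor (ER-Hoxa9) and the Lys-GFP reporter, including those kept in E2 as the control. The 56 h group then had E2 back for 64 h and the 72 h group for 48 h. The other add-back groups went 24 h without E2 and 96 h with it, or 40 h without and 80 h with it, and the last group had no E2 for 120 h. Nuclei of 100000 cells were used per preparation and split between a pair of transposition reactions. In each group 1 list stood for both libraries, and the labels do not say whether these came from separate cultures. The comparison therefore had no replicate error and no p-value, and the 95% intervals given here cover counting error over peaks only. Because every group with add-back was taken the same total time after the start, a longer withdrawal and a shorter add-back cannot be told apart. In bulk nuclei, fewer cells with an open site and a less open site per cell cannot be told apart either.

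Hoxa9 is a homeobox transcription factor that, with Meis1 and Pbx partners, keeps myeloid progenitors immature and dividing. Fused to the estrogen receptor it acts only while E2 is present, so washing E2 out lets the cells mature along the neutrophil path, which is driven by C/EBP family factors, PU.1 and Gfi1. ATAC-seq marks open chromatin by inserting adapters with the Tn5 transposase, and a peak is a stretch where insertions pile up.

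Start-site windows are shown for 9 genes of myeloid maturation whose start lay under a 72 h-only or 56 h-only peak. The peaks of 7 were called at 72 h and not at 56 h. Those of the last pair, Trem1 and Ctsc, were called at 56 h and not at 72 h. The windows were chosen after their peaks were seen, so this split is not a result. Each is the 250 bases before the annotated start, 5′ to 3′ on the gene's strand, from the RefSeq annotation of GRCm38.p6. Capitals mark matches, on either strand, to any of 11 motifs: those of C/EBP factors (TTGCNNAA), AP-1 dimers (TGANTCA), CREB-type factors (CRE, TGACGTCA), PU.1 (GAGGAAGT), other ETS factors (CCGGAAGT), RUNX factors (TGTGGTT), interferon regulatory factors (IRF, GAAA, then NN, then GAAA), the GC box bound by Sp-family factors (GGGCGG), the CCAAT box bound by the NF-Y complex (CCAAT), the E-box bound by Myc-family factors (CACGTG) and HOX with PBX (TGATTNAT).
Cebpa (chr7:35119043-35119292, plus strand): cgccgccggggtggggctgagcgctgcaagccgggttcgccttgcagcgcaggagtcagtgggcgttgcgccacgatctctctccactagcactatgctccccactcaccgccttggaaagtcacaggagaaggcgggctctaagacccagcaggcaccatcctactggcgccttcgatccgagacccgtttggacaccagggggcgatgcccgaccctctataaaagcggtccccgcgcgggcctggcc
Cebpb (chr2:167688665-167688914, plus strand): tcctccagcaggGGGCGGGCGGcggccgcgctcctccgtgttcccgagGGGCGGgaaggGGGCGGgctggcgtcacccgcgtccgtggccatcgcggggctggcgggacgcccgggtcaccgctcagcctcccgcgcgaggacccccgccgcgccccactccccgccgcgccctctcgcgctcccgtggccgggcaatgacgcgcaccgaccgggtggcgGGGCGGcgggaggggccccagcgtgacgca
Gfi1 (chr5:107725806-107726055, minus strand): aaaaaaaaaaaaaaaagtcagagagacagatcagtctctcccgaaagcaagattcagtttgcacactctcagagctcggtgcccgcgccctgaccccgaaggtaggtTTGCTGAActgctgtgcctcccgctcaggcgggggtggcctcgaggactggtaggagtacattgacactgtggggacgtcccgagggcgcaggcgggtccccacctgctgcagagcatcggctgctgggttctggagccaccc
Csf3r (chr4:126024409-126024658, plus strand): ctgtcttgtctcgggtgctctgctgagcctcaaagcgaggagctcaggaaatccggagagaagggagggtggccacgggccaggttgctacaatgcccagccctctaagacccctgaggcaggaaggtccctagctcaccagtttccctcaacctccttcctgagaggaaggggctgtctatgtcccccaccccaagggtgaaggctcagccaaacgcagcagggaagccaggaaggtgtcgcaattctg
Ms4a3 (chr19:11640852-11641101, minus strand): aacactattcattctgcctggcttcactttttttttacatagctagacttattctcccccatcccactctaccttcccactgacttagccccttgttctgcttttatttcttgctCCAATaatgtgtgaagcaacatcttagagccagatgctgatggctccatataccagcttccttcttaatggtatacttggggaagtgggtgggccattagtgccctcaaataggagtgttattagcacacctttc
Ly6c2 (chr15:75111972-75112221, minus strand): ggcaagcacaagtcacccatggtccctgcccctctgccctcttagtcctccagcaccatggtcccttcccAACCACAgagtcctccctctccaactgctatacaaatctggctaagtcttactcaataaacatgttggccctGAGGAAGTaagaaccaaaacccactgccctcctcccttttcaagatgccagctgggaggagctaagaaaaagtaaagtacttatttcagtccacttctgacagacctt
Cd68 (chr11:69666171-69666420, minus strand): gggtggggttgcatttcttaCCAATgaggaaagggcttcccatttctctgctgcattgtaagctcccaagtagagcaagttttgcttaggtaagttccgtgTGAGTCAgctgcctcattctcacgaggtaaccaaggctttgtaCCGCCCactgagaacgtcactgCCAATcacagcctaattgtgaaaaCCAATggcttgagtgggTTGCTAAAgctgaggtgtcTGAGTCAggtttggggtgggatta
Trem1 (chr17:48232489-48232738, plus strand): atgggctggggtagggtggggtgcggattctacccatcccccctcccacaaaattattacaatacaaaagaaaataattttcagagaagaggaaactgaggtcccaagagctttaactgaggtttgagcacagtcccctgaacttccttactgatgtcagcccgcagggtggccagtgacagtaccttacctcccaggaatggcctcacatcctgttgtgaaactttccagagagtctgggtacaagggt
Ctsc (chr7:88277835-88278084, plus strand): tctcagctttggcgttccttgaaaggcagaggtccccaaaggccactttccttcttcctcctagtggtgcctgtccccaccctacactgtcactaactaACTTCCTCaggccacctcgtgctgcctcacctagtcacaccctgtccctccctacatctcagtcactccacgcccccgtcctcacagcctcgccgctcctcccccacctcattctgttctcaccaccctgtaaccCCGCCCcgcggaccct
The windows of Cebpa, Cebpb, Gfi1, Ly6c2 and Ctsc lay wholly inside the peak. That of Csf3r had 107 bases inside it, Ms4a3 180, Cd68 152 and Trem1 114.

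Gfi1 had a C/EBP match from base -143 to -136 relative to its start, and Cd68 had one from -43 to -36 together with a pair of AP-1 matches. Ly6c2 had a PU.1 and a RUNX match, Ctsc a PU.1 match, and Cebpb 5 GC box matches. The windows of Cebpa, Csf3r and Trem1 held no match, which says only that these letters are not in those windows. A C/EBP match was present before 9.20% of the 609 starts covered by 72 h-only peaks (95% Wilson interval 7.15 to 11.8), 6.69% of the 344 covered by 56 h-only peaks (4.50 to 9.83) and 6.58% of the 6369 under shared peaks (6.00 to 7.21). Over all 21263 listed starts it was 9.09%, inside the intervals of both one-list classes. The GC box lay before 59.9% of 72 h-only starts (56.0 to 63.8), 67.2% of 56 h-only starts (62.0 to 71.9), 69.0% of shared starts and 42.6% of all starts. The CCAAT box was less frequent before one-list starts, at 30.1% for 72 h-only and 32.0% for 56 h-only peaks, than before shared starts, at 41.7% (40.5 to 42.9), with 35.4% of all starts. The shares of all listed starts holding the other motifs were 6.13% for AP-1, 1.92% for CRE, 2.23% for PU.1, 3.79% for ETS, 3.82% for RUNX, 2.96% for IRF, 6.63% for E-box and 2.52% for HOX/PBX. A HOX/PBX match, of the type bound by Hoxa9 with its partners, lay before 6 of the 72 h-only starts and 2 of the 56 h-only starts. These matches describe the letters and are not evidence of binding. Matches to different motifs, and to the same motif as at Cebpb, may overlap.

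Most peaks were common to both durations. In the 56 h list, 8112 peaks (90.2%, interval 89.6 to 90.8) had a partner in the 72 h list, and 8117 of the 72 h list (84.7%, interval 84.0 to 85.4) had one in the 56 h list. Among peaks of only 1 of these lists, 62.5% belonged to 72 h (60.6 to 64.5). The 72 h list was also the longer one. With it shortened to the 8989 widest peaks there were 1164 56 h-only and 1159 72 h-only peaks. Of the 1164, 287 were shared in the full lists. Lists of equal length give about equal numbers by construction, so these counts cannot test the excess at 72 h. In the other neighbouring pairs of lists the later list always held the smaller part of the one-list peaks: 29.2% from continuous E2 to 24 h, 29.6% from 24 to 40 h, 34.5% from 40 to 56 h and 26.4% from 72 to 120 h. In each of those pairs the later list was the shorter, so these shares follow list length. The 56 h list was the shortest of the 4 add-back lists. The share of 72 h peaks absent at 56 h exceeded the share of 56 h peaks absent at 40 h by 3.39 points (2.40 to 4.37). The list searched was shorter in the first case, with 8989 peaks at 56 h against 9940 at 40 h, and no adjustment was made for this.

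Most one-list peaks were also called elsewhere in the series. Of the 56 h-only peaks, 73.3% overlapped a peak of continuous E2, 70.5% one of 24 h, 65.2% one of 40 h and 23.9% one of 120 h. The 72 h-only peaks did so in 58.1%, 53.6%, 50.1% and 45.01% of cases, and the shared peaks in 87.7%, 89.0%, 90.6% and 79.4%. Those of 72 h were thus found less often in continuous E2, with a difference of -15.2 points (95% Newcombe interval -18.99 to -11.3), and more often at 120 h, by 21.1 points (17.2 to 24.8). With peaks below the median width of their list left out, the difference at 120 h was 11.8 points, and with the 72 h list shortened to its 8989 widest peaks, the length of the 56 h list, the difference in continuous E2 was -8.49 points. At gene boundaries, that is no more than 1000 bases from where a gene starts or ends, the difference at 120 h was 15.5 points (9.44 to 21.4), and away from them 26.2 points (21.3 to 30.8).

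**Figure D1:**
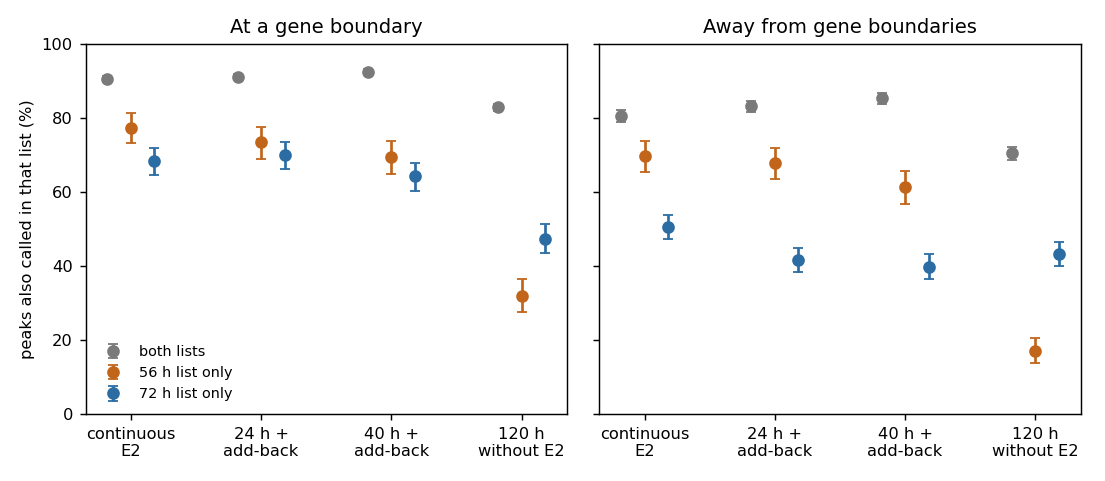
Share of 56 h-only, 72 h-only and shared peaks (percent, vertical axis) that were also called in each of the 4 other lists (horizontal axis), at gene boundaries (left) and away from them (right), with 95% Wilson intervals as bars. Away from boundaries, 17.1% of 56 h-only and 43.3% of 72 h-only peaks were called at 120 h, against 69.7% and 50.6% in continuous E2.

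The full calling history separated the classes further. A peak in all 3 of the shorter treatments (continuous E2, 24 h and 40 h) lay under 415 of the 56 h-only peaks (47.3%) and 483 of the 72 h-only peaks (33.0%). The commonest history of a 56 h-only peak was to be called in every list up to 56 h and in neither later one, with 306 peaks (34.9%). Absence at 72 h is set by the rule for this class. The commonest history of a 72 h-only peak was to be called in all 3 shorter treatments and not at 120 h, with 247 peaks (16.9%). Another 236 (16.1%) were called in all 3 and again at 120 h. Among the 72 h-only peaks, 408 (27.9%) were in none of the 3 shorter treatments, against 108 of the 56 h-only peaks (12.3%), a difference of 15.6 points (12.3 to 18.7). Of these 408, 201 were called again at 120 h and 207 at 72 h alone. They were narrow, with a median width of 326 bases, and 18.9% lay at a gene boundary. The remaining 1056 of the 72 h-only peaks were called in at least 1 shorter treatment and at 72 h, but not at 56 h. The lists come from separate groups and their depth is unknown, so a missing call at 56 h is not shown to be a loss.

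Progenitor genes had a larger share of 56 h-only peaks than genes at large. The 32 genes, which include Hoxa9, its cofactors and genes of immature blood cells, had 9 56 h-only, 6 72 h-only and 29 shared peaks. The 56 h-only share was 20.5%, against 7.88% over peaks of all protein-coding genes, and the 72 h-only share was 13.6% against 13.7%. All 9 of the 56 h-only peaks were also called in continuous E2 and 3 of them at 120 h, against 579 and 198 of the 784 over all genes. No peak was assigned to Hoxa9 itself.

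At Meis1, which encodes a DNA-binding partner of Hoxa9, the intragenic peak (chr11:18924804-18925191, GRCm38) measured 1094, 688, 452 and 388 bases in continuous E2 and after 24, 40 and 56 h. It was not called at 72 h and measured 463 bases at 120 h. Near Cd34, a surface sialomucin of stem and progenitor cells, a peak 14928 bases from the gene (chr1:194976220-194976898) measured 1186, 981, 862 and 679 bases in the same 4 lists. It was called neither at 72 nor at 120 h, while a second Cd34 peak was shared, at 399 bases after 56 h and 390 after 72 h. Peaks narrowed over these lists in general, with median widths of 839, 768, 696 and 602 bases, so the narrowing at both genes is not particular to 56 h-only sites.

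Zfhx3, a zinc finger homeobox gene, had a pair of intragenic 56 h-only sites. One measured 1173, 1042, 569 and 525 bases from continuous E2 to 56 h, the other 784, 713, 606 and 551, and neither was called at 72 or 120 h. Runx1 and Erg, transcription factors of blood stem cells, each had both kinds of peak. The Runx1 intragenic site (chr16:92620877-92621484) measured 1424, 930, 836 and 608 bases up to 56 h and was then absent. Another site 41325 bases from Runx1 was called in continuous E2 (551 bases), at 72 h (206 bases) and at 120 h (286 bases). In Erg a site of 685 bases at 56 h was absent later, and a site of 232 bases was called at 72 h alone. Ikzf1, the gene of the lymphoid and myeloid regulator Ikaros, had a distal site of 1382 bases in continuous E2, 1268 after 24 h and 451 after 56 h, called in no other list.

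Nrip1, a nuclear receptor corepressor gene, had a start-site peak that was missing at 72 h alone, as were the Meis1 site and a distal site of the cell cycle kinase gene Cdk6. Its widths were 1750, 1575, 1241, 1151 and 1091 bases in the lists that held it. Cdk6 also had a 72 h-only site inside the gene, of 310 bases, that was called in all 3 shorter treatments. Lmo2 had an intragenic 72 h-only site of 807 bases, also called in continuous E2 and after 24 h. Gfi1b had one of 270 bases at 72 h and 422 at 120 h, called in no other list. Some other progenitor sites were called at both durations. The start of Kit, the stem cell factor receptor, was 1187 bases at 56 h and 1010 at 72 h. That of Myb was 859 and 731 bases. An intragenic Flt3 site, absent from the 3 shorter treatments, measured 431 bases at 56 h, 420 at 72 h and 467 at 120 h.

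Genes of granulocyte transcription factors stood the other way. Of their 19 peaks, 8 were 72 h-only (42.1%, against 13.7% over all genes), 2 were 56 h-only and 9 were shared. Cebpa, whose factor commits progenitors to the granulocyte and monocyte lineages, had a start-site peak (chr7:35118858-35119611) of 1616 bases in continuous E2, 1325 after 24 h and 754 after 72 h. It was absent after 40, 56 and 120 h. Cebpb, a factor of stress-driven granulopoiesis, had a start-site peak (chr2:167688422-167689519) of 1098 bases that was called at 72 h and in no other list. The peak at Cebpd, a gene of late granulocyte stages, was missing at 56 h alone, with 1490, 1460 and 1330 bases in the shorter treatments, 907 at 72 h and 1124 at 120 h. These 3 family members therefore had a call at 72 h and none at 56 h, but different histories.

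Gfi1 encodes a repressor needed for neutrophil formation. Its start-site peak (chr5:107725457-107726901) was 1445 bases wide at 72 h and was called in no other list. A second Gfi1 site 17295 bases away measured 777 bases in continuous E2, 812 after 24 h, 764 at 72 h and 693 at 120 h, and was absent after 40 and 56 h. Both 56 h-only peaks of the group lay at Cebpe, which governs late granule protein genes, and Runx3, a factor of the RUNX family. The Cebpe site 4007 bases from the gene measured 658 bases in continuous E2, 207 after 40 h and 439 after 56 h, and was absent at 72 h. The Runx3 boundary site measured 740, 499, 389 and 246 bases from continuous E2 to 56 h and was absent later. Spi1, the gene of PU.1, and Irf8, a monocyte-fate factor, had shared peaks of 559 and 425 bases at 56 h and 524 and 487 bases at 72 h.

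Genes of primary granules and promyelocytes had 10 peaks, of which 3 were shared. The 2 56 h-only peaks made 20% and the 5 72 h-only peaks 50%, against 7.88% and 13.7% over all genes. Of the 5, 4 were in none of the shorter treatments and 4 were called at 120 h, against 358 and 619 of the 1366 over all genes. Csf3r, the receptor for G-CSF, had a start-site peak (chr4:126024552-126024909) of 358 bases at 72 h and 438 at 120 h. Ms4a3, a marker of granulocyte and monocyte progenitors, had a start-site peak (chr19:11640568-11641031) of 464 bases at 72 h and 202 at 120 h. Fcnb, the gene of the secreted lectin ficolin-B, had a site 7184 bases away of 463 and 514 bases. None of these 3 was called in continuous E2 or after 24, 40 or 56 h. Clec12a, an inhibitory myeloid lectin receptor gene, had a start-site peak of 627 bases in continuous E2, 609 at 72 h and 620 at 120 h only.

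The 56 h-only peaks of this group lay at protease genes. Ctsc, whose product activates the granule serine proteases, had a start-site peak (chr7:88277381-88278258) of 1145, 1077, 1042, 878 and 1001 bases in every list but that of 72 h. Ctsg, cathepsin G, had a site 2580 bases away of 895 bases in continuous E2, 717 after 40 h and 857 after 56 h, and in no other list. No peak was assigned to Mpo in either list.

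Late neutrophil genes had 8 72 h-only, 2 56 h-only and 5 shared peaks, a 72 h-only share of 53.3% against 13.7% over all genes. Of the 8, 5 were also called in continuous E2 and 4 at 120 h, and over all genes 808 and 619 of 1366 were. Pglyrp1, a bactericidal granule protein gene, had a start-site peak of 903 bases in continuous E2, 831 at 72 h and 863 at 120 h. Lyz1, a lysozyme gene, had a site 8789 bases away of 242 bases after 40 h, 494 at 72 h and 592 at 120 h. Lyz1 and Lyz2 are near-identical copies, so reads could be split between them, and no peak was assigned to Lyz2. At Cxcr4, the chemokine receptor that retains neutrophils in marrow, 2 sites were 72 h-only. The one inside the gene measured 1923, 2073, 463 and 416 bases in continuous E2, after 24 h, at 72 h and at 120 h. The wide peaks of the first 2 of these lists also covered the Cxcr4 start, where a shared peak measured 516 bases at 56 h and 570 at 72 h, so the 72 h-only site is a piece of that region. The 56 h-only sites lay at Trem1, an amplifier of neutrophil activation, with 611 bases in continuous E2, 265 after 40 h and 202 after 56 h, and near Itgam, an integrin subunit, with 230 and 265 bases after 40 and 56 h. The named 72 h-only sites of late neutrophil genes had thus each been called in a shorter treatment.

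**Figure D2:**
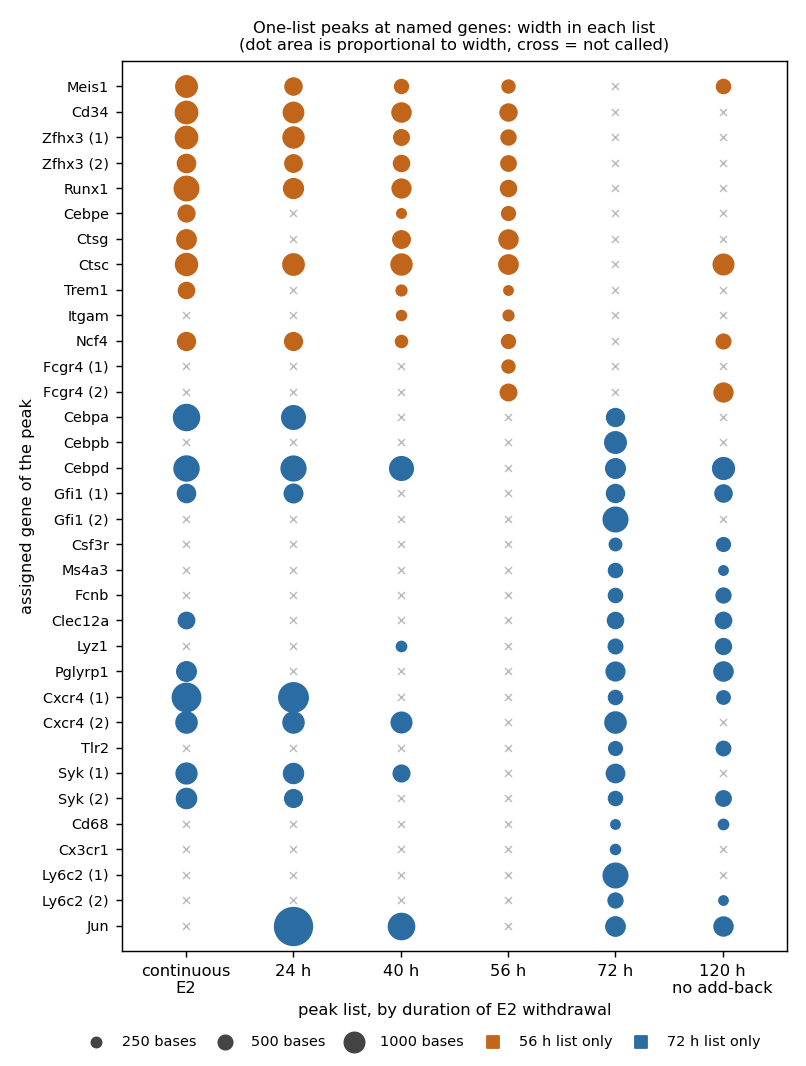
Width of 56 h-only (orange) and 72 h-only (blue) peaks of named myeloid genes (vertical axis) in each of the 6 lists (horizontal axis). Dot area is proportional to width in bases and a cross marks a list without the peak, so that peaks of Zfhx3, Cd34 and Runx1 are called up to 56 h and not later, with a narrowing also seen in the list medians (839 to 602 bases), while those of Csf3r, Ms4a3 and Fcnb appear at 72 and 120 h only.

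Phagocyte function genes had 6 72 h-only, 4 56 h-only and 14 shared peaks. The 72 h-only share was 25% and the 56 h-only share 16.7%, against 13.7% and 7.88% over all genes. Tlr2, a receptor for bacterial lipoproteins, had a site 3256 bases away of 437 bases at 72 h and 481 at 120 h. Syk, a kinase downstream of Fc receptors, had a pair of 72 h-only sites, of 790 and 461 bases, both also called in continuous E2 and after 24 h. Tyrobp, the adaptor DAP12, had a site of 1149, 949 and 483 bases in continuous E2, after 24 h and at 72 h. At 56 h only, Ncf4, an NADPH oxidase subunit gene, had a boundary peak of 446 bases that was missing at 72 h alone of the 6 lists. Fcgr4, an activating Fc receptor gene, had sites of 389 and 641 bases, the latter called again at 120 h with 839 bases.

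Monocyte and macrophage genes had 5 72 h-only, 0 56 h-only and 2 shared peaks. The 72 h-only share was 71.4% of 7 peaks, against 13.7% over all genes, where the 56 h-only share was 7.88%. Ly6c2, whose product marks inflammatory monocytes, held 2 of the 5. Its start-site peak (chr15:75111840-75112355) measured 516 bases at 72 h and 200 at 120 h, and a site 21167 bases away measured 1441 bases at 72 h alone. Ly6c2 has close paralogs nearby, so reads could be split between them. Cd68, a lysosomal glycoprotein of macrophages, had a start-site peak of 202 bases at 72 h and 242 at 120 h. Cx3cr1, the fractalkine receptor, had a site of 233 bases at 72 h alone. Cd74, the MHC class II invariant chain, had one of 1186 bases after 24 h, 581 at 72 h and 315 at 120 h.

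Many of these peaks were narrow. When peaks narrower than the median width of their list were left out, the 72 h-only peaks of the 12 gene groups numbered 23 instead of 56. Of these 23, 7 were shared in the full lists and lost their partner to the filter. Granulocyte transcription factors then had 5, late neutrophil genes 3, and progenitor, primary granule and monocyte genes 1 each, all of them 72 h-only in the full lists too. Progenitor genes had 7 56 h-only peaks, 4 of them 56 h-only in the full lists, and housekeeping genes had 5, of which 2 were. Both of the 56 h-only peaks of granulocyte transcription factors, and both of late neutrophil genes, were among those left out.

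**Figure D3:**
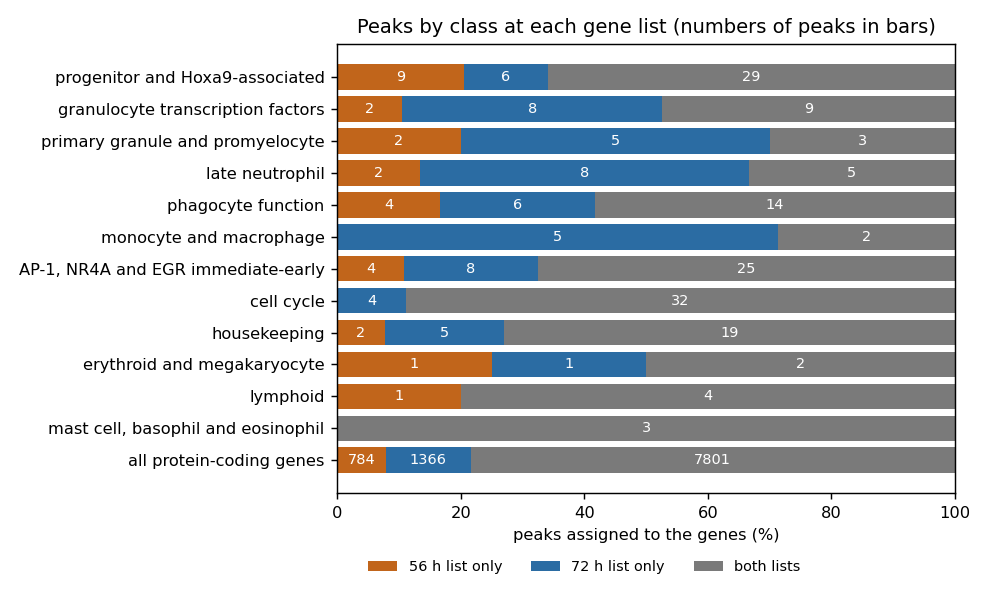
Share of assigned peaks (percent, horizontal axis) that were 56 h-only, 72 h-only or in both lists for each gene group and for all protein-coding genes (vertical axis), with numbers of peaks in the bars. The 72 h-only share was 71.4% of 7 peaks for monocyte and 53.3% of 15 for late neutrophil genes, against 13.7% over all genes.

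Cell cycle and housekeeping genes served as comparison groups. Cell cycle genes had 4 72 h-only (11.1%) and 32 shared peaks and no 56 h-only one, with the start of the mitotic kinase gene Plk1 missing at 56 h and 510 bases wide at 72 h. That of the replication helicase gene Mcm5 was missing at 56 h alone of the 6 lists, and measured 1004 bases at 72 h. Housekeeping genes had 5 72 h-only (19.2%), 2 56 h-only (7.69%) and 19 shared peaks, against 13.7% and 7.88% over all genes. At Actb, the cytoplasmic actin gene, a site of 1156 to 1348 bases in the 5 other lists was missing at 56 h, and at Polr2a, the largest RNA polymerase II subunit, a start-site peak of 1013 to 1395 bases in the 5 other lists was missing at 72 h. Wide peaks of constitutively used genes were therefore also absent from 1 of the lists.

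Immediate-early genes of the AP-1, NR4A and EGR families had 8 72 h-only, 4 56 h-only and 25 shared peaks. The 72 h-only share was 21.6% and the 56 h-only share 10.8%, against 13.7% and 7.88% over all genes. The start of Jun, an AP-1 subunit, measured 3454, 1633, 883 and 855 bases after 24, 40, 72 and 120 h and was absent in continuous E2 and at 56 h. Atf3, a stress-response factor of the same dimer family, had a start-site peak of 645 bases at 56 h, also called in continuous E2 and at 120 h. Dusp1, a MAP kinase phosphatase gene, had its start-site peak missing at 72 h alone, at 1008 bases in the 56 h list, and a distal site called at 72 h alone. These genes thus had calls on both sides. Other lineages had few peaks. Of 4 at erythroid and megakaryocyte genes, 1 was 56 h-only and 1 was 72 h-only. Of 5 at lymphoid genes these were 1 and 0, and of 3 at mast cell, basophil and eosinophil genes 0 and 0.

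The label of a myeloid progenitor line was checked against lineage markers. Of 7 progenitor markers, 5 had a peak at 56 h and 6 at 72 h, with Mpo at none in either and Cebpa at 72 h only. Of 8 neutrophil markers, 0 and 1 had a peak, the latter at Mmp8. Of 5 monocyte markers, 0 and 2 had one, at Ly6c2 and Cx3cr1, and S100a8, S100a9, Csf1r and Ccr2 had none. Of 4 erythroid markers 0 and 1 had one, of 4 lymphoid markers 1 and 1, and of 3 mast and basophil markers 0 and 0. Whether other cell types had a part in the differences was not tested.

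One-list peaks lay away from genes more often than shared ones. Of the 56 h-only peaks, 46.5% lay at a gene boundary, 25.5% elsewhere inside a gene, 17.3% outside but within 50 kb and 10.6% farther away. For the 72 h-only peaks these shares were 42.1%, 30.1%, 21.2% and 6.69%, and for shared peaks 71.9%, 15.8%, 8.37% and 3.89%. The boundary share of 72 h-only minus that of 56 h-only peaks was -4.45 points (95% Newcombe interval -8.60 to -0.294). This direction reversed with the 72 h list shortened as above, to 8.89 points higher, and without narrow peaks, to 3.50 points higher. Minus that of shared peaks it was -29.9 points for 72 h-only and -25.4 points for 56 h-only peaks.

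**Figure D4:**
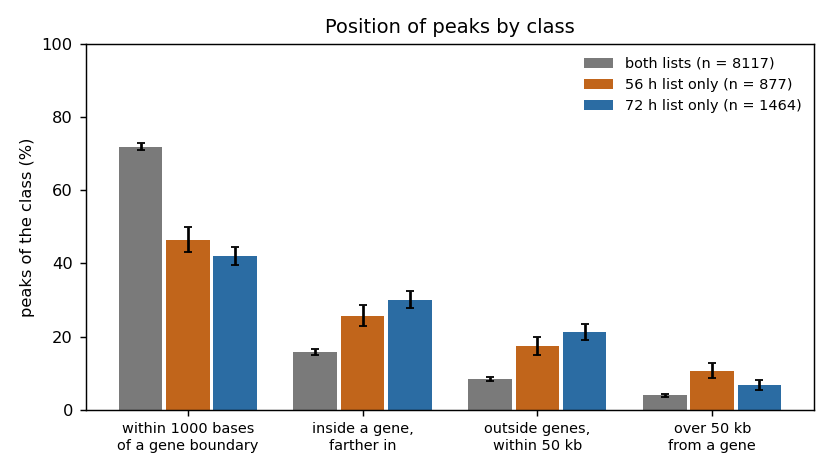
Share of the peaks of each class (percent, vertical axis) by position relative to protein-coding genes (horizontal axis), with 95% Wilson intervals as bars. Shared peaks lay at boundaries in 71.9% of cases, against 46.5% of 56 h-only and 42.1% of 72 h-only peaks.

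One-list peaks were spread over the genome. The 56 h-only share ran from 7.64% of 56 h peaks on chromosome 10 to 14.9% on chromosome 12, and the 72 h-only share from 11.7% of 72 h peaks on chromosome 8 to 19.4% on chromosome 19. They were assigned to 751 genes at 56 h and 1299 at 72 h, with 79 genes in both, out of 8522 genes with a peak in either list. The size of this overlap was not tested. Of the 751 and 1299 genes, 500 and 850 had no peak at all in the other list.

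One-list peaks were narrower than shared ones but not all narrow. Median widths were 492 bases for 56 h-only (quartiles 337 and 710) and 448 for 72 h-only peaks (305 and 670.5). Shared peaks had a median of 609 bases (483 and 749) in the 72 h list and 610 (475 and 760) in the 56 h list. Width takes the place of peak strength here, since the files give no score, and narrow peaks are more easily missed, so this is a description. When each list was split by width into 5 classes of equal size, in the narrowest class 19.4% of the 56 h peaks and 35.1% of the 72 h peaks had no partner, against 8.90% and 12.1% in the widest class. Peaks of 1000 bases or more made up 68 of the 56 h-only peaks (7.75%) and 90 of the 72 h-only peaks (6.15%). Among shared peaks they were 521 in the 56 h list (6.42%) and 460 in the 72 h list (5.67%).

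**Figure D5:**
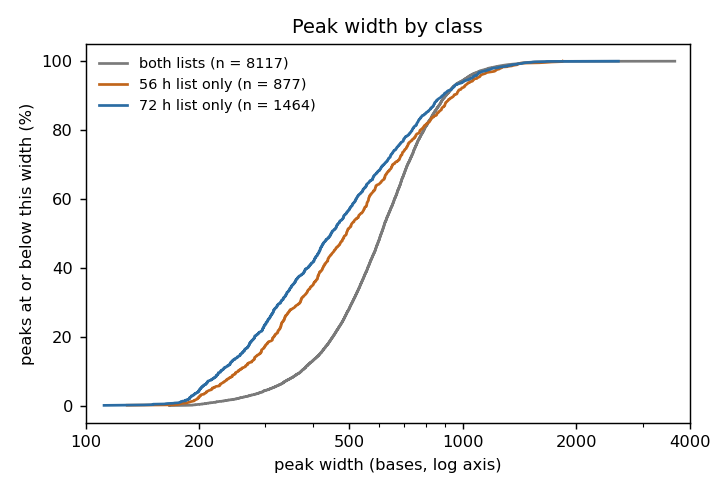
Cumulative share of peaks (percent, vertical axis) at or below a given width (bases, log axis) for each class, with shared peaks measured in the 72 h list. The curves of 56 h-only and 72 h-only peaks lie left of that of shared peaks up to about 800 bases, with medians of 492 and 448 against 609 bases.

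The overlap rule had no members close to its limit. The shared peaks with the least overlap shared 132 bases at Slc25a12, 137 at Defb40 and 145 at Ptpn6. The nearest one-list peaks were 471 bases from a peak of the other list near Gm31649, 556 near Mus81 and 580 near Ssbp3. The median distance to the nearest peak of the other list was 48240 bases for 56 h-only and 39910 for 72 h-only peaks.

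Where both durations had the peak, widths differed little in the median. Over 8098 peaks paired 1 to 1, the median ratio of the 72 h to the 56 h width was 1 (quartiles 0.927 and 1.09), with 3971 wider, 4029 narrower and 98 equal at 72 h. The ratio was above 1.5 in 166 pairs and below its inverse in 127. Among peaks of over 1000 bases in either list, that at Ppargc1b, a coactivator of mitochondrial genes, had the smallest ratio, with 1936 bases at 56 h and 695 at 72 h, and that at Rcor3, a corepressor gene, measured 1995 and 843. The largest ratio, with 729 and 1559 bases, was that of a distal peak assigned to Rbx1, a ubiquitin ligase subunit gene. It lay 46617 bases from the gene in the 56 h list. The peak at the Rbx1 start measured 846 and 841 bases.

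Over all genes, Zmiz1, a transcriptional coactivator gene, had the most 56 h-only peaks with 3, and Pip5k1b, a lipid kinase gene, and Arhgap25, a Rac-inactivating protein gene of phagocytes, the most 72 h-only peaks with 3 each. A pair of the Arhgap25 peaks lay under 1 peak of 1191 bases in continuous E2, so they are pieces of 1 site there. Csf2ra, a subunit of the GM-CSF receptor, and Zfp36l2, an mRNA decay factor of progenitors, had 2 72 h-only peaks each, as had Actb and Yy1. The E-protein gene Tcf12 and the insulin receptor gene Insr had 2 56 h-only peaks each. The widest 56 h-only peaks lay at Phip (1843 bases), Kansl1l (1839), Kmt2e (1723), Gse1 (1663) and Alyref2 (1597). Of these, that of Gse1 was called in no other list. The widest 72 h-only peaks lay at Nr3c1, the glucocorticoid receptor gene (2589 bases), Anp32b (1673), Rcc2 (1652), Tagln2 (1551) and H1f4 (1531), and each was also called after 24 or 40 h.

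In a few places 1 wide region of the series held a one-list peak of each duration. At Pcdh7, a protocadherin gene, the continuous E2 peak of 4261 bases covered both a 72 h-only peak of 1098 bases and a 56 h-only peak of 1192 bases. In Gse1, a peak of 1771 bases in continuous E2 covered a 72 h-only piece of 308 bases and a 56 h-only piece of 319 bases. In all, 5 of the 56 h-only and 10 of the 72 h-only peaks shared a merged region of the 6 lists with a peak of the other duration.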

How the data were processed

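Chromatin accessibility was measured by ATAC-seq. The deposited files give the chromosome, start and end coordinates of each peak, 1 list per group, and no other value, so depth is unknown. How the authors combined both libraries is not given in the sources used here. Per the submitters' processing notes, the tools were MACS2 2.0, STAR 2.5 and BWA (version not given), and the build was mm9, with no role stated. The coordinates matched GRCm38 instead: 69.6% of 56 h and 67.4% of 72 h peaks lay at gene boundaries (at most 1000 bases away), but 9.53% and 10.1% after a shift of 20000 bases.

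From the 9823 rows of the 56 h list, 214 duplicates and 2 intervals over 10 kb were dropped and 618 rows were merged away, leaving 8989 peaks. From the 10257 rows of the 72 h list, 173, 1 and 502 were removed in the same way, leaving 9581. Coordinates are printed 1-based. A peak was assigned to the protein-coding RefSeq gene (GRCm38.p6) it overlapped, or else to the nearest within 50 kb. The gene table has no strand, so gene starts and ends are treated alike as boundaries. Start sites with strand were listed for 17492 of 21900 genes, and motifs were searched in the 250 bases before each. Of the genes in the groups, Azu1 alone was not in the annotation.

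The members and gene groups were chosen with earlier results of these data known. Named genes were those with the most one-list peaks (10 per list), those of the 5 widest peaks of each class, up to 4 per gene group and list, 14 given genes, genes with both kinds of peak, and the shared peaks with the most extreme width ratios. Some genes taken by the rule are left out of the text. Markers and the genes nearest the overlap limit are named besides, and the 9 start-site windows were chosen after their peaks were seen. Shares have 95% Wilson intervals and differences 95% Newcombe intervals. Alternatives covered the overlap rule, list length, narrow peaks, interval length, chromosomes 18 and 19, boundary window and assignment distance, and merged regions of all 6 lists, the last chosen after seeing the data. The overlap and class functions were tested on simulated data. Python 3.11.15, numpy 2.4.6, pandas 2.3.3, scipy 1.17.1 and matplotlib 3.10.9 were used.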

Additional observations from a re-analysis of the deposited data

How the results depend on the processing

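No paired analysis was possible because the 2 libraries of a group come as a single list, which also kept any library from being left out. Without peaks narrower than the median width of their list, 82.1% of 56 h and 77.1% of 72 h peaks overlapped the other list, the median widths were 683 bases for 56 h-only and 667 for 72 h-only peaks, the 120 h difference was 11.8 points, the gene boundary difference reversed to 3.50 points (interval -0.54 to 7.58) and the gene groups held 23 72 h-only peaks. Of the 56 h-only and 72 h-only peaks under this filter, 493 of 806 and 625 of 1099 were shared in the full lists. With the 72 h list shortened to its 8989 widest peaks, the overlap shares were 87.05% for 56 h and 87.11% for 72 h, with 1164 and 1159 one-list peaks. Lists of 1 length give about equal numbers by construction, so this cannot test the excess of 72 h-only peaks. The median widths were then 403 and 525 bases, the 120 h difference 14.97 points, the continuous E2 difference -8.49 points and the gene boundary difference reversed to 8.89 points. Under 50% reciprocal overlap the continuous E2 difference was -10.8 points. The differences in continuous E2 and at 120 h kept their direction in every setting run. The setting within 200 bases tests nothing, since no peaks lay that close, and leaving out intervals over 5 kb gave identical values. Why the values moved was not tested, beyond what dropping peaks itself imposes. Depth was unknown, so a peak absent from a list may have been below its detection limit.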
